A study of Mus musculus with 12 samples.

Results

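The miR-17-92 cluster and its paralogs, the miR-106a-363 and miR-106b-25 clusters, were followed in microglial exosomes after repetitive mild traumatic brain injury (rmTBI). The 10 mature miRNAs mmu-miR-17-5p, mmu-miR-18a-5p, mmu-miR-19a-3p, mmu-miR-19b-3p, mmu-miR-20a-5p, mmu-miR-92a-3p, mmu-miR-106a-5p, mmu-miR-106b-5p, mmu-miR-93-5p, and mmu-miR-25-3p (the prefix for mouse is left out from here on) were chosen by their place in these clusters and matched exactly to the miRNA names in the array files. Of these, 9 are among the 1881 mouse miRNAs that the arrays read, and miR-106a-5p was not analysed here because no probe carried its name. Exosomes came from adult male C57BL/6 mice, which were 12 weeks old when purchased. The rmTBI groups received 4 closed-head impacts at intervals of 48 h and were sampled at 3, 14, and 42 days post-injury (DPI), and the sham group underwent the same handling without impact. Vesicles were precipitated from digested cerebral cortex and hippocampus and pulled down with an antibody against CD11b, a surface protein of microglia that other myeloid cells also carry. Each group had 3 single-color arrays, 12 in all, and the labels do not say whether replicates were separate animals, so that p values measure the spread between these samples. All groups shared strain and sex, and the labels give the sham group no time point, so that it is not matched to a single day.

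A miRNA cluster is transcribed as a single long precursor that is cut into hairpins, and each hairpin gives mature miRNAs from its arms. Bases 2 to 8 of a mature miRNA, the seed, are the main determinant of which messenger RNAs it represses, so members with a shared seed have overlapping targets even when they lie on different chromosomes. The miR-17-92 family is known for its part in cell proliferation and survival. In the mouse reference (RefSeq, build GRCm38.p6), the 6 hairpins of miR-17-92 lie on the plus strand at chr14:115043671-115044506, and the 6 hairpins of miR-106a-363 on the minus strand at chrX:52741693-52742567, and for neither does the gene table used here list a gene that spans the cluster. The 3 hairpins of miR-106b-25 lie on the minus strand at chr5:138165321-138165818, inside Mcm7 (chr5:138164583-138172111), which encodes a subunit of the replicative helicase. The table does not give exons or introns.

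All 10 members have a mature sequence in RefSeq, and they fall into 4 groups by seed. They are shown because the comparisons below pair members by seed or by cluster, and because some differ by so few bases that a probe must tell nearly equal sequences apart. Sequences run 5′ to 3′, with the seed in capitals.
mmu-miR-17-5p: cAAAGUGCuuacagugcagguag
mmu-miR-20a-5p: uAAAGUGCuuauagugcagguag
mmu-miR-106a-5p: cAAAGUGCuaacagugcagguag
mmu-miR-106b-5p: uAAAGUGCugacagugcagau
mmu-miR-93-5p: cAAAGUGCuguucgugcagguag
mmu-miR-18a-5p: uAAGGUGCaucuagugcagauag
mmu-miR-19a-3p: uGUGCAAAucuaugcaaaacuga
mmu-miR-19b-3p: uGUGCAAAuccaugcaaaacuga
mmu-miR-92a-3p: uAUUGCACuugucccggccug
mmu-miR-25-3p: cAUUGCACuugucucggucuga
The first 5 share the seed AAAGUGC across the 3 clusters, and miR-18a-5p stands alone with AAGGUGC. With positions counted from 1 at the 5′ end, miR-17-5p and miR-20a-5p differ at 2 positions (C1U and C12U), and miR-19a-3p and miR-19b-3p differ at 1 (U11C). MiR-106b-5p and miR-93-5p differ at 5 of 21 positions, and miR-92a-3p and miR-25-3p at 3 of 21. MiR-19b-3p and miR-92a-3p are each made from a hairpin on chromosome 14 and another on chromosome X with the same mature sequence, so the arrays cannot tell these 2 sources apart.

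The arrays became brighter with time after injury, which limits what can be said of dim members. Each measured member has 2 probes, printed as 15 spots each. Spot intensities were averaged within a probe and summed over the probes of a miRNA. To scale an array, its values were divided by the 75th percentile of the 230 miRNAs seen above background on every array, and scaled values under -5.42 on the log2 scale were raised to that floor. Detection on an array required that more than 0.5 of the spots of a probe lay well above background. Before scaling, this percentile was 217 to 348 intensity units in sham and 401 to 619 at 3 DPI. It reached 588 to 1173 at 14 DPI, then 1385 to 2936 at 42 DPI. The 3 sham arrays and replicate 1 of 3 DPI were on slide 1 and the other 8 arrays on slide 2, so that slide and injury cannot be told apart in the comparisons of 14 and 42 DPI with sham. Fewer vesicles and less of a miRNA per vesicle cannot be told apart in these samples either.

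The label "microglial" was checked against marker miRNAs. Of 6 microglia and myeloid markers, miR-342-3p was detected on all sham arrays, and miR-142a-3p, miR-142a-5p, miR-146a-5p, and miR-155-5p on none of them. At 42 DPI, 4 of the 6 were detected on all arrays. Of 6 neuron markers, 5 or 6 were detected on all arrays of each group, as were all 3 oligodendrocyte markers. The neuron marker miR-124-3p was detected on no array of sham or 42 DPI, and on all arrays of 14 DPI. The summed scaled signal of the neuron markers was 11.9 to 16.1 in sham and 12.5 to 20.3, 12.1 to 24.3, and 19.6 to 24.1 at the 3 times after injury. That of the oligodendrocyte markers was 1.80 to 2.51 in sham and 4.12 to 4.43 at 42 DPI, and that of the microglia and myeloid markers 1.46 to 2.56 and 2.49 to 2.99. The part of these shifts in the members' values was not tested. Of 2 endothelium markers, 1 was detected on all sham arrays and both on all arrays of 42 DPI. Of the 4 erythrocyte markers with probes, none was detected in sham, and miR-144-3p and miR-144-5p were detected in no group. MiR-451a and miR-486a-5p were each detected on some array of every injury group, and 1 of them on all arrays of 42 DPI.

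**Figure D1:**
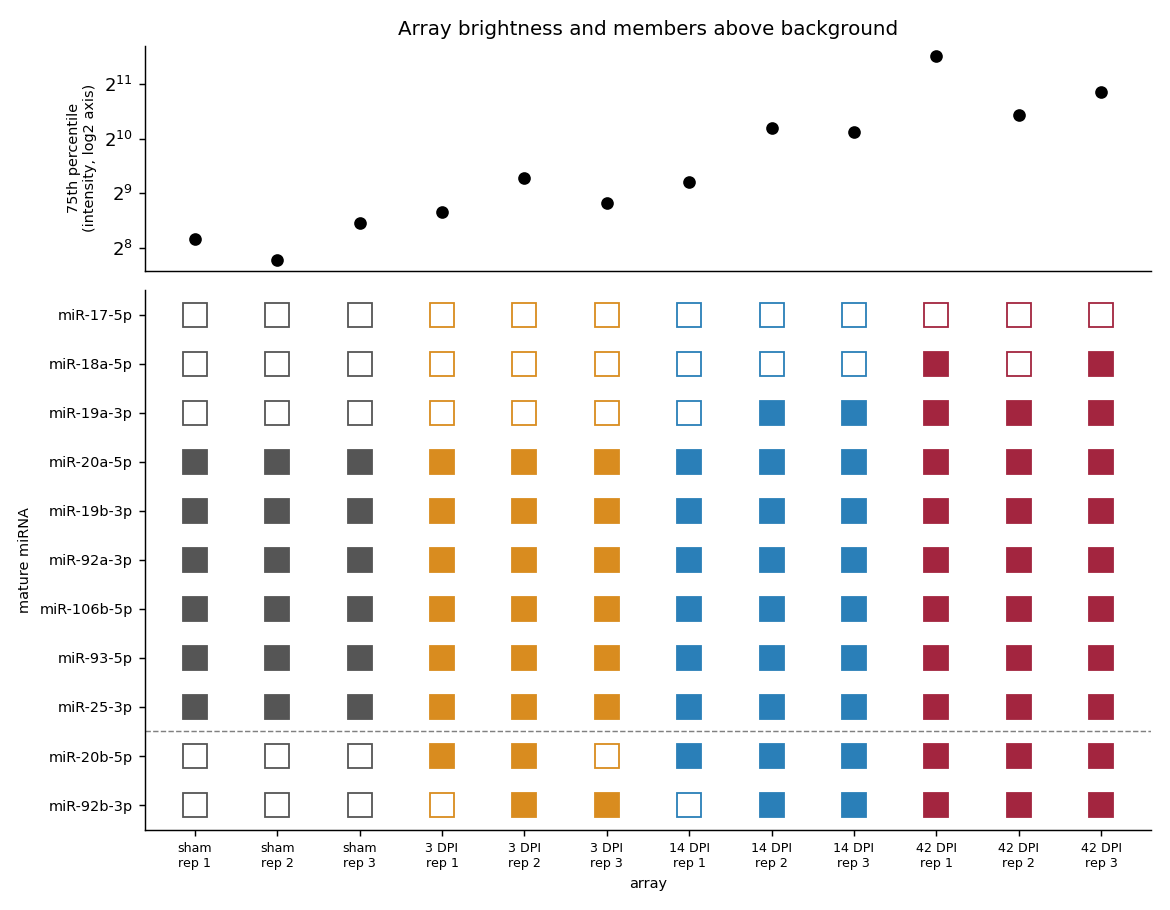
The upper panel plots the 75th percentile of each array before scaling (intensity, log2 axis), which spans 217 (sham replicate 2) to 2936 (42 DPI replicate 1). In the lower panel, a filled square marks an array on which the miRNA was detected above background and an open square one on which it was not; 6 members are filled on all 12 arrays, and the rows under the dashed line are miRNAs of the same seeds that are not members.

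Of the 9 measured members, 6 were detected on all 12 arrays. These were miR-20a-5p of miR-17-92, miR-19b-3p and miR-92a-3p, which miR-17-92 and miR-106a-363 both encode, and all 3 members of miR-106b-25. MiR-17-5p, the first miRNA of its cluster, was detected on 0 of 12 arrays, with summed intensities between -5.41 and 8.96 after background subtraction. MiR-18a-5p was detected on 2 arrays, replicates 1 and 3 of 42 DPI. MiR-19a-3p was detected on replicates 2 and 3 of 14 DPI and on all 3 arrays of 42 DPI, and on no other array. No fold change is given for miR-18a-5p and miR-19a-3p, because their levels where detected lay under the lowest levels that the dimmer arrays could measure. The mean of miR-19a-3p at 42 DPI was -5.34 before flooring, against a limit of -4.18 for sham and -5.11 for 3 DPI. MiR-19a-3p entered the fit over all miRNAs because it was detected on all arrays of 42 DPI, but on all arrays of sham and 3 DPI it lay at the floor, so its test is not read and it is left out of the counts of members called.

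The widest differences between groups under this scaling were those of miR-106b-5p and miR-93-5p, both of the AAAGUGC seed. MiR-106b-5p, the first miRNA of the Mcm7 cluster, measured -2.94, -2.53, and -2.24 on the log2 scale in sham replicates 1, 2, and 3. It measured -2.42, -2.77, and -3.12 at 3 DPI, -2.71, -2.08, and -1.84 at 14 DPI, and -1.84, -1.96, and -1.84 at 42 DPI. All 3 arrays of 42 DPI lay above all arrays of sham, as for 32.5% of all miRNAs tested, and above all of 3 DPI, as for 29.6%. Replicate 1 of 14 DPI lay among the sham values. As mean ± SD, these are -2.57 ± 0.35 in sham, -2.77 ± 0.35 at 3 DPI, -2.21 ± 0.45 at 14 DPI, and -1.88 ± 0.07 at 42 DPI (n = 3).

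MiR-93-5p, the middle miRNA of the same cluster, measured -3.99, -3.41, and -3.25 in sham and -3.19, -3.18, and -3.75 at 3 DPI. It measured -3.67, -2.80, and -2.67 at 14 DPI and -2.78, -2.88, and -2.89 at 42 DPI. As with miR-106b-5p, the arrays of 42 DPI lay above all arrays of sham and 3 DPI (32.5% and 29.6% of all miRNAs tested, each comparison taken alone). Replicate 1 of 14 DPI lay apart from the other 2. The means were -3.55 ± 0.39, -3.37 ± 0.32, -3.05 ± 0.55, and -2.85 ± 0.06 (SD, n = 3) in sham and at 3, 14, and 42 DPI. 

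MiR-20a-5p has the same seed but comes from miR-17-92. It measured -2.78, -2.31, and -2.25 in sham, -2.29, -2.66, and -3.13 at 3 DPI, -3.04, -2.39, and -2.19 at 14 DPI, and -2.32, -2.41, and -2.35 at 42 DPI. Its groups overlapped throughout, with means between -2.69 ± 0.42 at 3 DPI and -2.36 ± 0.05 at 42 DPI (SD, n = 3).

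In the other seed groups no pair of groups was separated for any member detected on all arrays. MiR-19b-3p, of the GUGCAAA seed, measured -1.96, -1.31, and -1.28 in sham, -1.35, -1.48, and -2.07 at 3 DPI, -2.35, -1.34, and -1.45 at 14 DPI, and -1.19, -1.47, and -1.41 at 42 DPI. MiR-92a-3p, the last miRNA of its cluster, measured -2.87, -2.71, and -2.67 in sham, -2.50, -2.67, and -3.12 at 3 DPI, -3.14, -2.71, and -2.65 at 14 DPI, and -3.06, -2.81, and -2.96 at 42 DPI. MiR-25-3p, which has the seed of miR-92a-3p and the cluster of miR-106b-5p, measured -2.97, -2.55, and -2.76 in sham, -2.38, -2.50, and -2.93 at 3 DPI, -3.25, -2.68, and -2.59 at 14 DPI, and -2.60, -2.71, and -2.68 at 42 DPI. The SDs of these 3 members at 42 DPI (0.15, 0.12, and 0.06) were each smaller than at 14 DPI (0.56, 0.27, and 0.36).

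The low values came from the same arrays. Replicate 1 of sham, replicate 3 of 3 DPI, and replicate 1 of 14 DPI each held the lowest value of their group for all 6 members, and no array of 42 DPI did so. Results that rest on replicate 1 of 14 DPI are therefore given with and without it.

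**Figure D2:**
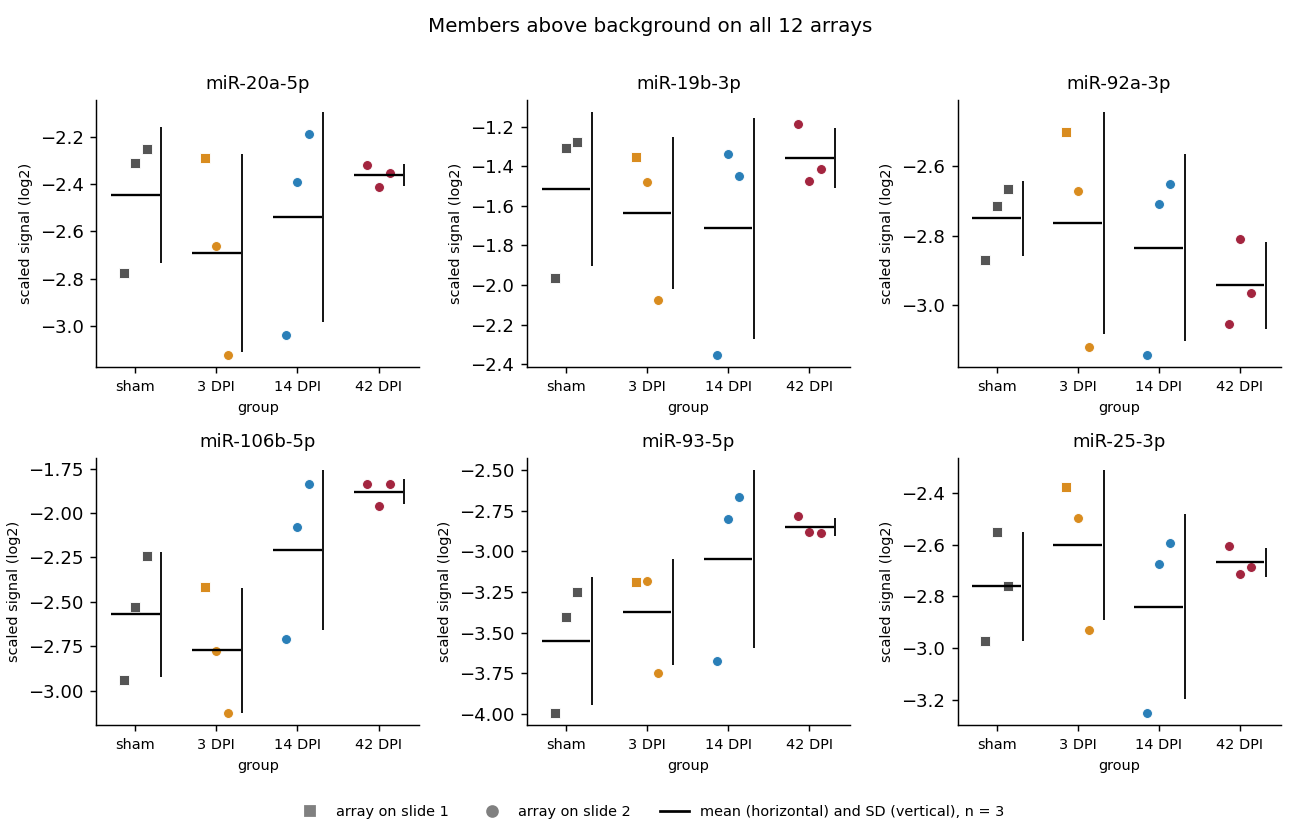
Scaled signal (log2) of the 6 members detected on all 12 arrays, by group, with squares for slide 1, circles for slide 2, and lines for mean and SD (n = 3). For miR-106b-5p and miR-93-5p the 3 points of 42 DPI sit above all sham and 3 DPI points under this scaling, while under normexp background correction both had lower group means at 42 DPI than in sham. Of all miRNAs tested, 32.5% were separated in this way from sham and 29.6% from 3 DPI. The median change of all miRNAs tested, 42 DPI against sham, was -0.86 under normexp.

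Against sham, no member passed the test at any time point. The test was limma in a fit over all 12 arrays, with Benjamini-Hochberg adjustment over 486 miRNAs, those above background on every array of some group. At 3 DPI, 0 of the 6 members detected on all arrays were called, beside 0% of all miRNAs tested (10 had an unadjusted p under 0.05, none of them a member, and the methods' own pairwise test with adjustment called 0). The log2 changes of these 6 members ran from -0.25 for miR-20a-5p to 0.18 for miR-93-5p. At 14 DPI, 0 members were called, beside 3.7% of all tested, and 0 had an unadjusted p under 0.05. None of the 6 was higher on every array than on every sham array, against 5.35% of all miRNAs tested. MiR-106b-5p was higher by 0.36 in limma (SE 0.26, adjusted p = 0.44) and miR-93-5p by 0.50 (SE 0.29, adjusted p = 0.35), and the other 4 lay between -0.20 and -0.08. Under normexp all 6 members were called lower than sham, beside 77.6% of all miRNAs tested, with miR-106b-5p at -0.38 and miR-93-5p at -0.62. Replicate numbers paired sham with 14 DPI by the correlation of their deviations, and with the number as a block 0 members and 4 miRNAs were called at 14 DPI, in place of 18 without it. Without replicate 1 of 14 DPI, miR-93-5p was called (0.81, adjusted p = 0.035), beside 34.4% of all miRNAs tested. Without replicate 1 of sham its change was 0.28 (adjusted p = 0.74 in limma).

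At 42 DPI, 0 members were called against sham, beside 35.8% of all miRNAs tested. MiR-106b-5p was higher by 0.69 on the log2 scale (SE 0.26, 95% CI 0.09 to 1.29), or 1.61-fold, with an unadjusted p of 0.028 and an adjusted p of 0.067 in limma, and it was lower by the normexp background correction (-0.37). MiR-93-5p was higher by 0.70 (SE 0.29, 95% CI 0.03 to 1.36), or 1.62-fold, with an adjusted p of 0.085, and it was lower by normexp (-0.88) and by the scanner software's totals (-3.67). With the sum of the software's totals per probe it was higher by 0.68. MiR-19b-3p, miR-20a-5p, and miR-25-3p differed by 0.16, 0.09, and 0.09 (SE 0.31, 0.27, and 0.20), each lower by normexp and without replicate 1 of sham, and miR-25-3p also by the software totals. MiR-92a-3p differed by -0.19 (SE 0.18), and it was higher under 5 other settings. MiR-106b-5p and miR-93-5p, 2 of the 6 members, were higher on every array of 42 DPI than on every sham array, as were 32.5% of all miRNAs tested. Without replicate 1 of 14 DPI, which enters only through the estimate of the spread, both were called (adjusted p = 0.028 and 0.027), beside 52.7% of all miRNAs tested, and in a fit of only these 2 groups both were called as well, beside 58% of all. Without replicate 1 of sham neither was called, beside 16% of all. Their changes were then 0.51 for miR-106b-5p and 0.48 for miR-93-5p (adjusted p = 0.23 and 0.29 in limma). The median change of the 6 members was 0.12, beside -0.09 over all miRNAs tested. With normexp the median over all miRNAs tested was -0.86, and 89.1% of them were called.

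**Figure D3:**
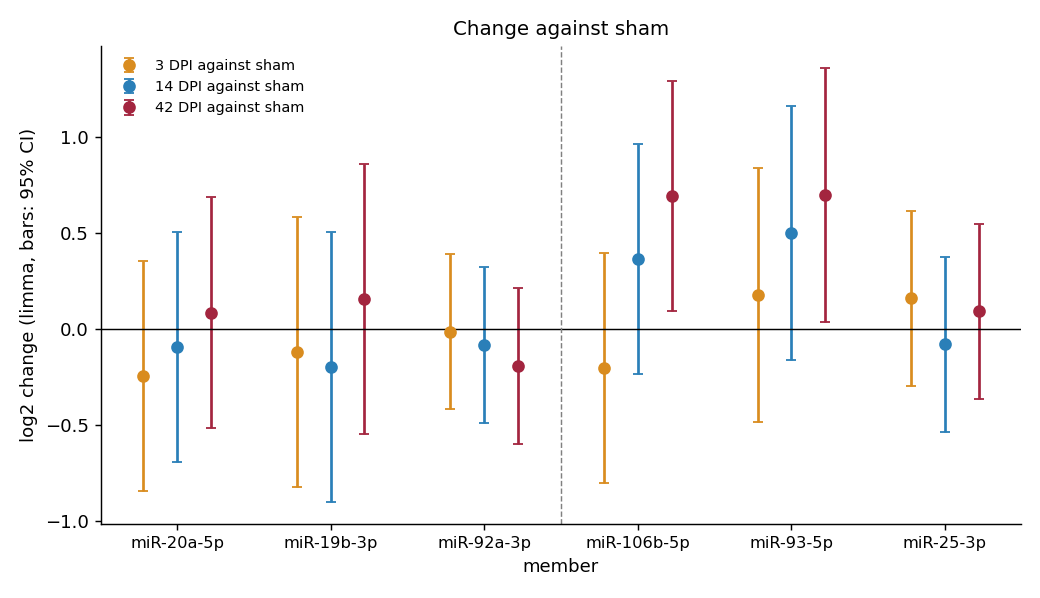
Log2 change against sham for the 6 members detected on all arrays, with 95% confidence intervals from limma. Members left of the dashed line have a hairpin in miR-17-92 (miR-19b-3p and miR-92a-3p have another in miR-106a-363), and those right of it come from miR-106b-25. At 42 DPI the intervals of miR-106b-5p (0.09 to 1.29) and miR-93-5p (0.03 to 1.36) lie above 0, although neither passed adjustment and both changes turned negative under normexp.

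The 3 times after injury were then compared with each other, which 8 arrays of a single slide also allow. MiR-106b-5p rose between 3 and 42 DPI by 0.89 (SE 0.26, 95% CI 0.29 to 1.49), or 1.86-fold, with an adjusted p of 0.031 in limma. It was the 1 member called of 6, beside 41.6% of all miRNAs tested, and it was higher on 3 of 3 arrays of 42 DPI than on any of 3 DPI. Among the arrays of slide 2 alone the difference was 1.07 (adjusted p = 0.054), where 11.7% of all miRNAs were called, and with slide as a block it was 1.07 (adjusted p = 0.035), where 23.5% were. The call was lost without replicate 3 of 3 DPI (0.72, adjusted p = 0.11) and without any of the 3 arrays of 42 DPI (0.87 to 0.93), where 10.3% and 0% to 17.7% of all miRNAs were called. The difference had the same sign under every setting, down to 0.02 by normexp. It was not called by normexp (adjusted p = 0.89 in limma), where 69.3% of all miRNAs were. The software totals did not call it either (1.00, adjusted p = 0.058), beside 29% of all. MiR-93-5p was higher by 0.52 (SE 0.29, adjusted p = 0.17), and lower by normexp (-0.52) and the software totals (-1.09). With the sum of the software's totals per probe it was higher by 0.50. The arrays of 42 DPI lay above all those of 3 DPI for 2 of 6 members, miR-106b-5p and miR-93-5p, and for 29.6% of all miRNAs tested. The other 4 members differed by -0.18 to 0.33.

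Between 3 and 14 DPI, 0 members were called, beside 1.23% of all tested. MiR-106b-5p was higher at 14 DPI by 0.56 (SE 0.26, adjusted p = 0.26), and without replicate 1 of 14 DPI it was called (0.81, adjusted p = 0.042), beside 28.2% of all miRNAs tested. Between 14 and 42 DPI, 0 members were called, beside 0% of all tested (55 miRNAs had an unadjusted p under 0.05, none of them a member, and the methods' own pairwise test with adjustment called 0). The 6 members differed by -0.11 to 0.35.

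Differences between members on the same array do not depend on how arrays were scaled, so they were compared across groups. Of 7 pairs chosen, 3 had both members detected on all arrays. MiR-106b-5p minus miR-25-3p, the first and last miRNAs of the same precursor, was 0.03, 0.02, and 0.52 on the log2 scale in sham, -0.04, -0.28, and -0.20 at 3 DPI, 0.54, 0.60, and 0.76 at 14 DPI, and 0.77, 0.75, and 0.85 at 42 DPI. The values of 14 and 42 DPI lay above all those of sham and 3 DPI, and those of 3 DPI below all those of sham. The groups differed in an exact permutation test of the group labels over 12 arrays (p = 0.00013, adjusted over 3 pairs p = 0.00039). They also differed over the 8 arrays of slide 2, which hold no sham array (exact permutation p = 0.0071, adjusted p = 0.021, smallest possible 0.0036). The difference was 0.80 (SE 0.095) larger at 14 DPI than at 3 DPI, so that the ratio of miR-106b-5p to miR-25-3p was 1.75 times as large, and 0.96 (SE 0.076) larger at 42 DPI than at 3 DPI. Replicate 2 of 3 DPI and replicate 1 of 14 DPI were on the same slide and had a similar 75th percentile before scaling (619 and 588), and their differences were -0.28 and 0.54. These are single arrays, and the part of array brightness in the difference between groups was not tested. How often pairs of other miRNAs separate the groups in this way was not tested either. Between 3 and 42 DPI, 69 miRNAs were called higher and 133 lower.

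MiR-20a-5p minus miR-93-5p, which share a seed but not a cluster, was 1.21, 1.10, and 0.99 in sham, 0.90, 0.52, and 0.62 at 3 DPI, 0.64, 0.41, and 0.48 at 14 DPI, and 0.47, 0.47, and 0.54 at 42 DPI. The groups differed over 12 arrays (exact permutation p = 0.0036, adjusted p = 0.0055), and the p over slide 2 was 0.59. The 4 arrays of slide 1 lay between 0.90 and 1.21 and the 8 arrays of slide 2 between 0.41 and 0.64, without overlap, so that slide and injury cannot be told apart here. MiR-92a-3p minus miR-25-3p, which share a seed, lay between -0.45 and 0.11 on all arrays, and the test gave p = 0.062 (exact permutation, adjusted p = 0.062). Pairs with miR-17-5p, miR-19a-3p, or miR-106a-5p were not tested, because a member of each was below background or had no probe.

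**Figure D4:**
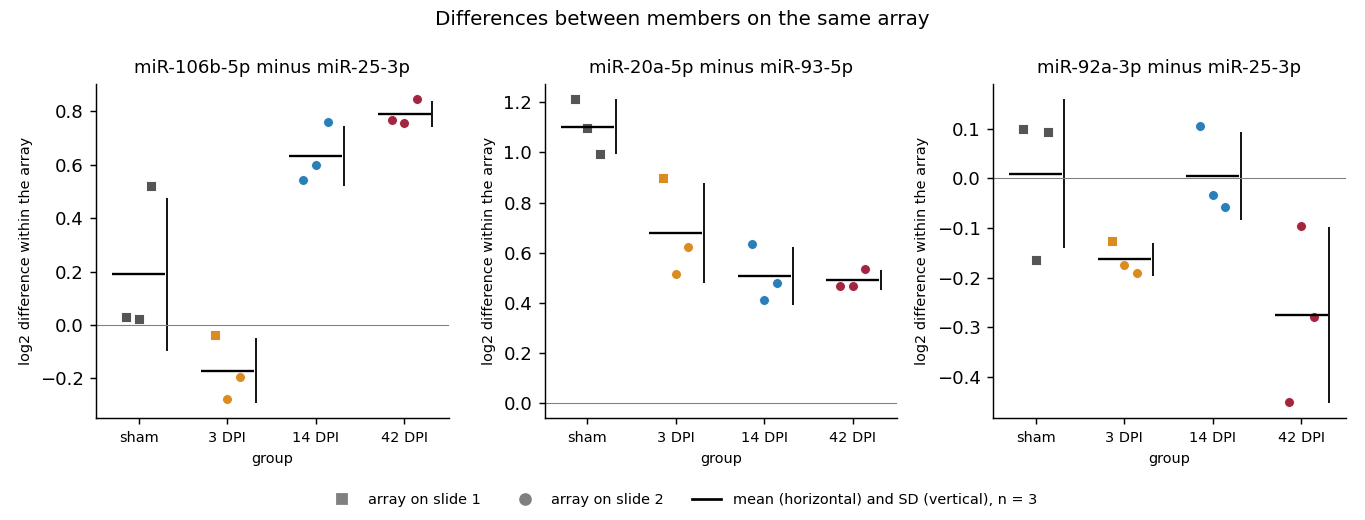
Log2 difference between 2 members on the same array, by group, with squares for slide 1, circles for slide 2, and lines for mean and SD (n = 3). MiR-106b-5p minus miR-25-3p was 0.54 to 0.85 at 14 and 42 DPI and -0.28 to -0.04 at 3 DPI, while miR-20a-5p minus miR-93-5p separates the 4 arrays of slide 1 (0.90 to 1.21) from the 8 of slide 2 (0.41 to 0.64).

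The size of the change at 42 DPI depended on the scaling, and the median over all miRNAs moved with it. The median log2 change of all miRNAs tested, 42 DPI against sham, was -0.09 with the 75th percentile over the 230 miRNAs, 0.54 with the percentile over all miRNAs, 0.21 with quantile normalization, 0.44 in the deposited table, -0.86 with normexp, and 2.02 without scaling. Relative to these medians, miR-106b-5p lay above by 0.79, 0.93, 0.93, 0.83, 0.49, and 1.49, in that order. MiR-93-5p lay above by 0.79, 0.94, 1.08, 0.78, and 1.50, and by normexp at -0.02 relative to the median. MiR-92a-3p stayed nearer to the median, between -0.19 by normexp and 0.60 without scaling.

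The totals per miRNA that the scanner software wrote could not be used as the main values for 3 members. For miR-25-3p, miR-92a-3p, and miR-93-5p, they differed by more than 0.5 times from the sum of the software's own probe totals on 6, 6, and 5 of 12 arrays, with ratios up to 22.3, 21.9, and 27.4. For miR-19b-3p, miR-20a-5p, and miR-106b-5p they stayed within 0.5 times of that sum on all 12 arrays. The ratios of miR-93-5p were 27.4, 24.5, and 22.7 in sham replicates 1, 2, and 3 and 1 on each array of 42 DPI. Changes and calls of miR-25-3p, miR-92a-3p, and miR-93-5p with the totals per miRNA are listed but not read. With the sum of the software's probe totals, a setting chosen after seeing the data, miR-106b-5p was again the 1 member called between 3 and 42 DPI. Of all miRNAs tested, 46.7% were called there. With the totals per miRNA, miR-106b-5p was not called (1.00, adjusted p = 0.058 in limma).

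**Figure D5:**
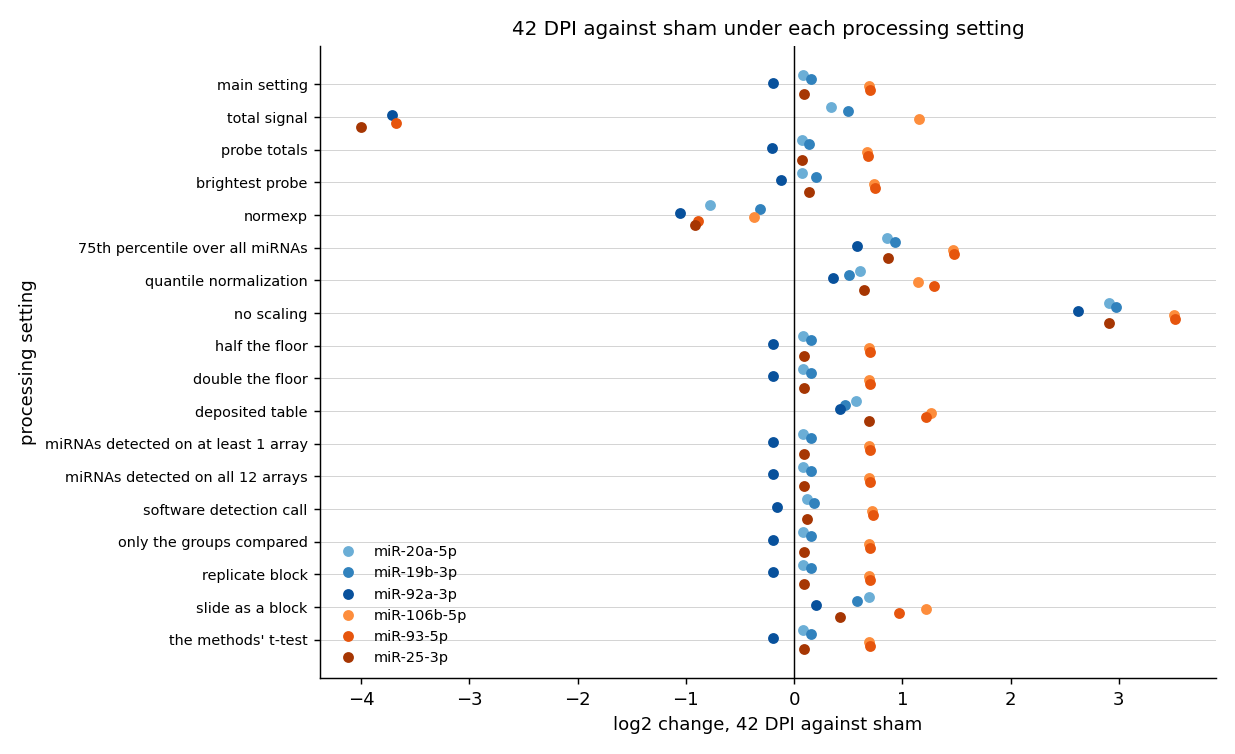
Log2 change of the 6 members at 42 DPI against sham (x axis) under each processing setting (y axis). All 6 lie below 0 with normexp and above 0 without scaling, and miR-92a-3p, miR-93-5p, and miR-25-3p lie near -4 with the software's total signal, where miR-106b-5p lies at 1.16. With the sum of the software's probe totals, miR-92a-3p, miR-93-5p, and miR-25-3p lie at -0.21, 0.68, and 0.08.

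The members differed in how closely they moved together over the 12 arrays. As a description across arrays that share scaling and groups, Pearson's r was 0.91 for miR-19b-3p with miR-20a-5p, neighbors in miR-17-92, and 0.91 for miR-106b-5p with miR-93-5p. It was 0.42 for miR-106b-5p with miR-25-3p and 0.21 for miR-106b-5p with miR-92a-3p, the lowest of the 15 pairs. Among the miRNAs that are not members, the 5 most like the mean of the members (miR-19a-3p included), by Pearson's r over 12 arrays, were let-7g-5p, miR-411-5p, let-7c-5p, miR-532-5p, and miR-20b-5p, with r between 0.966 and 0.972. The last of these comes from the miR-106a-363 cluster. All 5 were also the ones most like the mean of the 6 members detected on all arrays, with r between 0.961 and 0.969.

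The other mature miRNAs of the 3 clusters were mostly below background. Of 18, mainly the opposite arms of the hairpins, all 18 have probes, 3 were detected on at least 1 array, and 1, miR-20b-5p of miR-106a-363, was tested. Of 3 miRNAs elsewhere in the genome with the seed of miR-25-3p, miR-92b-3p was tested and miR-32-5p and miR-367-3p were detected on no array. The mature sequences of the 2 tested show the shared seeds.
mmu-miR-20b-5p: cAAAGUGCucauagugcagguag
mmu-miR-92b-3p: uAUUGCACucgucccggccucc
MiR-20b-5p was seen above background in 0 of 3 sham samples, 2 of 3 samples of 3 DPI, and all 6 later samples, and its mean of -4.04 at 42 DPI was no higher than the sham limit of -4.02, so no fold is given. MiR-92b-3p measured -4.55, -3.48, and -3.10 at 3 DPI and -5.42 (the floor), -4.66, and -4.99 at 42 DPI, and was detected on 2 of 3 and 3 of 3 arrays. It fell by 1.31 from 3 to 42 DPI (SE 0.45, adjusted p = 0.045 in limma), the opposite direction to miR-106b-5p, but without scaling it was higher by 0.64. The call was lost in 9 of the 12 fits that left out 1 array (adjusted p = 0.052 to 0.16 in limma). These were the fits without sham replicate 1 or 2, replicate 2 or 3 of 3 DPI, replicate 2 or 3 of 14 DPI, and any array of 42 DPI, with changes from -1.49 to -1.01. It was also lost with the software totals (-0.79), the brightest probe (-0.28), the percentile over all miRNAs (-0.53), quantile normalization (-0.61), and a floor 2 times as high (-0.76). At an unchanged -1.31, it was lost with the wider filter of miRNAs detected on at least 1 array (adjusted p = 0.059), with only these 2 groups in the fit (0.063), and by the methods' own pairwise test (0.097). It was detected on no sham array.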

How the data were processed

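Exosomal RNA was labeled with cyanine 3 and read on single-color Agilent miRNA arrays. The authors deposited a scanner file per array, in which Agilent Feature Extraction 10.7.1.1, per the submitters' processing notes, gave each spot a background-corrected intensity on a linear scale, not normalized between arrays. The authors also deposited a table of log2 values, higher for brighter miRNAs, with a median of -3.32 in every column; its scaling and centering are not given in the sources used here. The labels describe amplification of cRNA from 0.2 μg RNA, whereas the methods name dephosphorylation, denaturation, and cyanine 3 labeling and no such step. The effect of an amplification step on small RNAs was not tested. Members and lists were chosen with earlier results of these data known.

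Spots that are controls or that the software had marked as outliers were not used. No spot was saturated (0 on each array). Of 270 member spots per array, 0 lay on the scan grid of another array, while 30 spots of a non-member did on each injury array. Names followed the injury arrays, since 2 spots carry another name on the sham arrays. Groups came from the labels, 3 arrays each, and the number of arrays limits the precision. limma 3.58.1 (R 4.3.3) fitted group means over the 12 arrays, with two-sided p values adjusted by Benjamini-Hochberg and no covariates, after the fit was tested on simulated data. Within-array differences were tested by exact permutation of group labels (Python 3.11.15, NumPy 2.4.6, pandas 2.3.3, SciPy 1.17.1). Members called were counted over the 6 detected on all arrays. Named were all 10 members, other miRNAs of the clusters or seeds detected on all arrays of a group, and the 5 tested miRNAs most like the members.

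Replicate numbers paired sham with 14 DPI: deviations from group means correlated across 486 miRNAs at 0.84, 0.44, and 0.74 for numbers 1, 2, and 3, while no other pair of groups had all 3 correlations above 0.1. The pairing comes from these correlations alone. Alternatives were the software totals, the brightest probe, normexp with offset 50, other scalings, floors of 0.5 and 2 times, other filters and detection calls, fits restricted to a pair of groups, blocks for slide or replicate number, slide 2 alone, the deposited values, the pairwise test of the methods (Student's, the methods' t-test), and the omission of single arrays. Chosen after seeing the data were the sum of the software's probe totals, slide 1 alone, and the replicate block with only sham and 14 DPI.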

Additional observations from a re-analysis of the deposited data

Results flagged for a closer look

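The change of miR-106b-5p differed between 2 times after injury: its level at 42 DPI was 0.89 on the log2 scale above that at 3 DPI (limma, adjusted p = 0.031, higher on 3 of 3 arrays). This contrast equals the difference between its changes against sham at the 2 times (0.69 and -0.20), which share the sham arrays. Between these 2 times 41.6% of all miRNAs tested were called, and 29.6% were higher on all arrays of 42 DPI. The call of miR-106b-5p was lost on slide 2 alone (adjusted p = 0.054 in limma) and in 4 of the 12 fits without an array. Groups of 3 arrays are too small for a check for outlying samples.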

How the results depend on the processing

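The replicate block over all arrays left the member counts at 0 in 5 comparisons and at 1 for 42 DPI against 3 DPI (miR-106b-5p, 0.89, adjusted p = 0.048), while miR-92b-3p lost its call there (adjusted p = 0.072), and the paired fit of only sham and 14 DPI called 0 members. Causes of the shifts below were not tested, except that fits without an array have fewer samples.

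Members called, of 6, moved as follows, with the share of all miRNAs tested that the same setting called. At 3 DPI against sham, normexp called 1 (36.6%). At 14 DPI against sham, normexp called 6 (77.6%) and no scaling 6 (71.6%). At 42 DPI against sham, the software totals called 4 (35.2%), the brightest probe 1 (29.8%), normexp 5 (89.1%), quantile normalization 2 (45.1%), the percentile over all miRNAs 2 (50.2%), no scaling 6 (86%), the deposited log2 values 1 (51.2%), the software's detection call 1 (42.4%), and a fit restricted to these groups 2 (58%). Normexp called 1 between 3 and 14 DPI (15.2%), and no scaling called 4 between 14 and 42 DPI (35%). Between 3 and 42 DPI, the software totals called 0 (29%), normexp 4 (69.3%), quantile normalization 2 (45.7%), the percentile over all miRNAs 3 (54.5%), no scaling 6 (63.4%), the deposited log2 values 2 (58.8%), and slide 2 alone 0 (11.7%). Calls by normexp were all lower and those without scaling all higher. With each array left out, counts ran from 0 to 0 (3 DPI against sham, and 14 against 42 DPI), 0 to 1 (14 DPI against sham and against 3 DPI, and 42 DPI against 3 DPI), and 0 to 2 (42 DPI against sham). The methods' t-test gave a p under 0.05 for 2 members at 42 DPI against sham (58.4% of all) and for 1 between 3 and 42 DPI (50.8%), and after adjustment for 0 (46.1%) and 1 (32.7%).

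Signs turned for these log2 changes. At 42 DPI against sham, normexp gave -0.31 for miR-19b-3p, -0.78 for miR-20a-5p, -0.37 for miR-106b-5p, -0.88 for miR-93-5p, and -0.91 for miR-25-3p, and the software totals gave -3.67 for miR-93-5p and -4.00 for miR-25-3p. MiR-92a-3p was 0.58 with the percentile over all miRNAs, 0.36 with quantile normalization, 2.63 without scaling, 0.42 in the deposited table, and 0.20 with slide as a block. At 3 DPI against sham, miR-106b-5p was 0.16 with the software totals, 0.59 without scaling, 0.15 with slide as a block, and 0.15 on slide 1 alone, and miR-93-5p was -2.59 with the software totals, -0.36 by normexp, and -0.25 in the deposited table. At 14 DPI against sham, normexp gave -0.38 for miR-106b-5p and -0.62 for miR-93-5p, and the software totals gave -3.75 for miR-93-5p. Between 3 and 42 DPI, miR-93-5p was -1.09 with the software totals and -0.52 by normexp, and miR-92b-3p was 0.64 without scaling. Without sham replicate 1, changes turned to -0.067 (miR-19b-3p), -0.080 (miR-20a-5p), and -0.013 (miR-25-3p) at 42 DPI and to -0.045 (miR-93-5p) at 3 DPI. With each array left out, these 4 ran up to 0.28, 0.18, 0.20, and 0.36.

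For the within-array differences, exact permutation p values of miR-20a-5p minus miR-93-5p were 0.59 on slide 2, 0.064 by normexp, and 0.080 in the deposited table. Those of miR-92a-3p minus miR-25-3p were 0.017 with the software totals and 0.015 by normexp. MiR-106b-5p minus miR-25-3p stayed below 0.05 under all 5 alternatives (up to 0.030). The p values from the software totals are not read for the pairs with miR-25-3p. Those totals differed from the probe totals on 6 of 12 arrays for miR-25-3p, and on 6 for miR-92a-3p. With each array left out, p ran from 0.0020 to 0.022, from 0.012 to 0.14 (lowest without 42 DPI replicate 2, and 0.016 without sham replicate 2), and from 0.00013 to 0.0068 for the 3 pairs in this order. Signal over background limits miR-17-5p, miR-18a-5p, and miR-19a-3p.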
